A study of Mus musculus with 18 samples.

Results

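The regions described here are stretches of H3K4me3 inside protein-coding genes and far from where those genes begin or end. Overlapping peaks of the 9 H3K4me3 libraries were merged on chromosomes 1 to 19. A merged region was kept when it lay wholly inside a protein-coding gene and more than 5 kb from both ends of every protein-coding gene in the RefSeq table of GRCm38.p6, the assembly also called mm10. This gave 44327 gene body regions of 179043 merged regions in all, or 24.8%. Another 19750 regions lay within 1 kb of a coding gene end, and these are called promoter regions below. The remaining regions were 104112 between genes or only partly in one, and 10854 inside a gene but nearer an end. The gene table gives no strand, so "end" covers both the first and the last base of a gene.

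The cells were prospermatogonia, fetal male germ cells in mitotic arrest, sorted from E17.5 embryos by a GFP reporter driven by Oct4 and stored frozen. H3K4me3 was mapped by CUT&RUN, in which an antibody bound to the mark directs a nuclease to cut and release the chromatin around it, from 4000 nuclei a library. The genotypes were wild type (WT, Tet1+/+), Tet1 knockout (KO, Tet1-/-) and homozygotes for the Tet1 HxD allele (HxD, Tet1HxD/HxD), known as catalytically inactive, with 3 libraries each and batch label 1 throughout. The labels do not say whether the libraries of a genotype came from separate litters or animals, so p-values measure the spread between libraries, which may be technical. The Tet1 alleles were present throughout the animal as far as the labels say, so an effect in the germ cells and one that reached them from other tissue cannot be told apart. All groups shared the GFP reporter, and 9 IgG samples were not analysed here.

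H3K4me3 is laid down at transcription start sites and is strongest where the DNA is rich in CpG dinucleotides, because the methyltransferase complexes that write it carry domains that bind unmethylated CpG. Many genes have a further start inside the gene body that yields a shorter product or an antisense or other long noncoding RNA (lncRNA), and such an internal promoter carries H3K4me3 far from the gene's outer ends. TET1 oxidises 5-methylcytosine and also binds CpG-rich DNA and partner proteins, and the HxD allele was made to part these activities.

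The DNA before 8 transcript starts inside genes is shown, since CpG content at starts went with how many libraries had a region there. Most gene body regions lay away from such starts, so these 8 examples do not show what the regions lie on in general. Each run gives the 250 bases before a RefSeq start of GRCm38.p6, 5′ to 3′ on the strand of transcription, with every CpG in capitals. Larp1 (chr11:58008814-58009063, plus strand) and Mxi1 (chr19:53329163-53329412, plus) lie in regions that were longer in both mutants. Gnas (chr2:174327499-174327748, plus) lies in one of the broadest regions, Dnmt3a (chr12:3891494-3891743, plus) is the internal start of a DNA methyltransferase gene, and Kcnq1ot1 (chr7:143296548-143296797, minus) is the imprinted antisense transcript inside Kcnq1. Tcf7l2 (chr19:55895071-55895320, plus) carried a region in every WT library, Zfp385b (chr2:77519667-77519916, minus) in every mutant library and no WT library, and Sox6 (chr7:115995087-115995336, minus) has no gene body region within 1 kb. These starts were chosen after their values were seen.
Larp1: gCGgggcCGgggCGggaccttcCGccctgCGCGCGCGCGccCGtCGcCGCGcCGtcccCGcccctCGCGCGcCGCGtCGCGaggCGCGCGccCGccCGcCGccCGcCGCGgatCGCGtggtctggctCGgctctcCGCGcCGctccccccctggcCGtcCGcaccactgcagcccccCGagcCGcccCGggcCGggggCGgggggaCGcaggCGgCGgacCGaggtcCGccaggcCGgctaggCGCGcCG
Mxi1: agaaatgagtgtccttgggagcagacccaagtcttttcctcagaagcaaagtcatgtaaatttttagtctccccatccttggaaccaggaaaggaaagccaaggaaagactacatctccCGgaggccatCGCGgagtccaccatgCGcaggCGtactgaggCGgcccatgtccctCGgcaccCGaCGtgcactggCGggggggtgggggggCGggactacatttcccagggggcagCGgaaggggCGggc
Gnas: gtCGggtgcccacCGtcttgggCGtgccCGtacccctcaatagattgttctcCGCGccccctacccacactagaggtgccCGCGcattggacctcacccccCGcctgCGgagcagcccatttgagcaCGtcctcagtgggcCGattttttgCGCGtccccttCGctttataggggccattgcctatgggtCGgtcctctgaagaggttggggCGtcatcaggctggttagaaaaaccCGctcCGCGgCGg
Dnmt3a: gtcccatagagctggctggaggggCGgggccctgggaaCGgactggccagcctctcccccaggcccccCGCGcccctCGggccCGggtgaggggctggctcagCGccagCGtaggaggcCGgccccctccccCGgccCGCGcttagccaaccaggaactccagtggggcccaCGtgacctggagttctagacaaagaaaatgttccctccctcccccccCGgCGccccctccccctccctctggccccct
Kcnq1ot1: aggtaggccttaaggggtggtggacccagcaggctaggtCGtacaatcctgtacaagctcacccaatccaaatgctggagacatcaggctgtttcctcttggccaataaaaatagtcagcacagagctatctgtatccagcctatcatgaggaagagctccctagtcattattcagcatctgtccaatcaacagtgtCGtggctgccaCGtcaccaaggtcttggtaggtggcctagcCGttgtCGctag
Tcf7l2: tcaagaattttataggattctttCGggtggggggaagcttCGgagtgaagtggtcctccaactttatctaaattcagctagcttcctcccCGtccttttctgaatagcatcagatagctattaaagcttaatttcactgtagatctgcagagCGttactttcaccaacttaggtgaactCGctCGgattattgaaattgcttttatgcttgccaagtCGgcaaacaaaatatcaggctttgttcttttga
Zfp385b: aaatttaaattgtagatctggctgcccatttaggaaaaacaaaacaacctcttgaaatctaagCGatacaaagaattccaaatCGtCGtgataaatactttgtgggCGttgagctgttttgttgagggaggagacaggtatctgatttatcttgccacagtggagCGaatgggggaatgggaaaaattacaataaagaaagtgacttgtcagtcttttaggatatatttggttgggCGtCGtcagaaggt
Sox6: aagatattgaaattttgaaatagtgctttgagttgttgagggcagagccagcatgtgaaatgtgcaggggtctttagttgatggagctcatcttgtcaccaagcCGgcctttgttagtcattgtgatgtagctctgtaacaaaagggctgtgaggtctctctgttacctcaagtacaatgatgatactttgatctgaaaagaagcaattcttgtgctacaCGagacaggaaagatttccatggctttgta

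The runs before Larp1 and Gnas hold 53 and 21 CpG, those before Dnmt3a and Mxi1 15 and 13, those before Tcf7l2 and Zfp385b 7 each, that before Kcnq1ot1 5 and that before Sox6 2. CpG counts below refer to the whole RefSeq window of 300 bases, from 250 before to 50 after a start, in which Larp1 has 61, Gnas 27, Mxi1 21, Dnmt3a 18, Kcnq1ot1 9, Tcf7l2 and Zfp385b 7 each and Sox6 2. Of 31396 starts in that table on the autosomes other than chromosome 18, which has none there, 4154 lay inside a coding gene more than 5 kb from every coding gene end. Of these, 2053 belonged to the host gene itself and 2101 to other transcripts, called lncRNA starts here.

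Host gene starts inside genes were often marked. A gene body region present in all 9 libraries lay within 1 kb of 705 of the 2053 host gene starts (34.3%) and of 219 of the 2101 lncRNA starts (10.4%). No region in any library lay within 1 kb of 892 host gene starts (43.4%) and 1436 lncRNA starts (68.3%). The median CpG count was 18 in host gene windows with a region in all 9 libraries and 4 in those with none, and for lncRNA windows it was 11 and 3. Start windows of coding genes at their outer ends had a median of 15 CpG. Of 473 internal start windows with 20 or more CpG, 385 (81.4%) had a region in all 9 libraries, against 275 of 544 (50.6%) with 10 to 19 CpG and 264 of 3137 (8.42%) with at most 9. The reverse also occurred: 65 of the 473 CpG-rich windows (13.7%) had no region within 1 kb. Several starts can share 1 region, so these are counts of starts and not of independent sites.

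**Figure D1:**
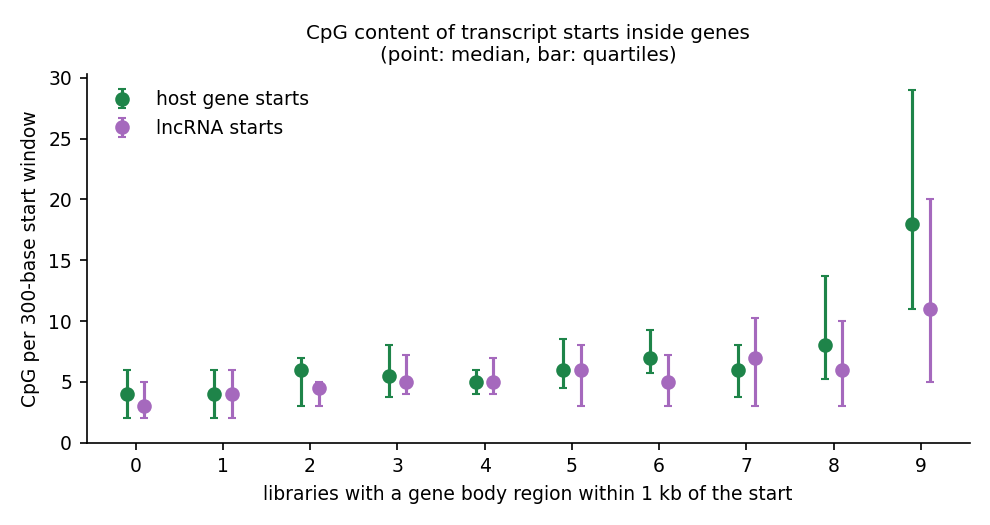
CpG dinucleotides per 300-base window of transcript starts inside coding genes (y axis), by the number of libraries with a gene body region within 1 kb (x axis); points are medians and bars quartiles, for host gene and lncRNA starts. The medians lie between 3 and 8 for starts with 0 to 8 libraries and rise to 18 and 11 for starts with all 9.

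Some short motifs differed in frequency as well. GGGCGG, the core of the GC box bound by Sp1, was found on either strand in 55.2% of the 924 internal start windows with a region in all 9 libraries, in 10.3% of the 2328 with none, and in 36% of all 31396 windows. TATAAA was found in 5.41%, 17.7% and 13.6% of these, and CCAAT, the CCAAT box, in 31.5%, 33.8% and 37.3%. GGGCGG contains a CpG, so its count moves with CpG content, and a match describes letters only.

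Most gene body regions were seen in a single library, and those in all 9 lay at starts more often. Of the 44327 regions, 26718 (60.3%) had a peak in 1 library only and 3413 (7.70%) in all 9. Regions in 1 library were covered over a median of 304 bp with a median fold enrichment of 4.21, the ratio of peak to background that the authors' caller gives for each peak. Regions in all 9 libraries were covered over a median of 1156 bp with a median fold enrichment of 9.47. Outside chromosome 18, 717 of 3305 regions in all 9 libraries (21.7%) lay within 1 kb of a RefSeq start, against 389 of 25812 regions in 1 library (1.51%). Longer regions reach more starts by their length alone, and that part was not tested. Ends of noncoding genes of any type lay within 1 kb of 427 regions in all 9 libraries (12.5%) and of 3.07% of regions in 1 library. Of the 717, 585 had a host gene start, 189 an lncRNA start and 64 both.

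**Figure D2:**
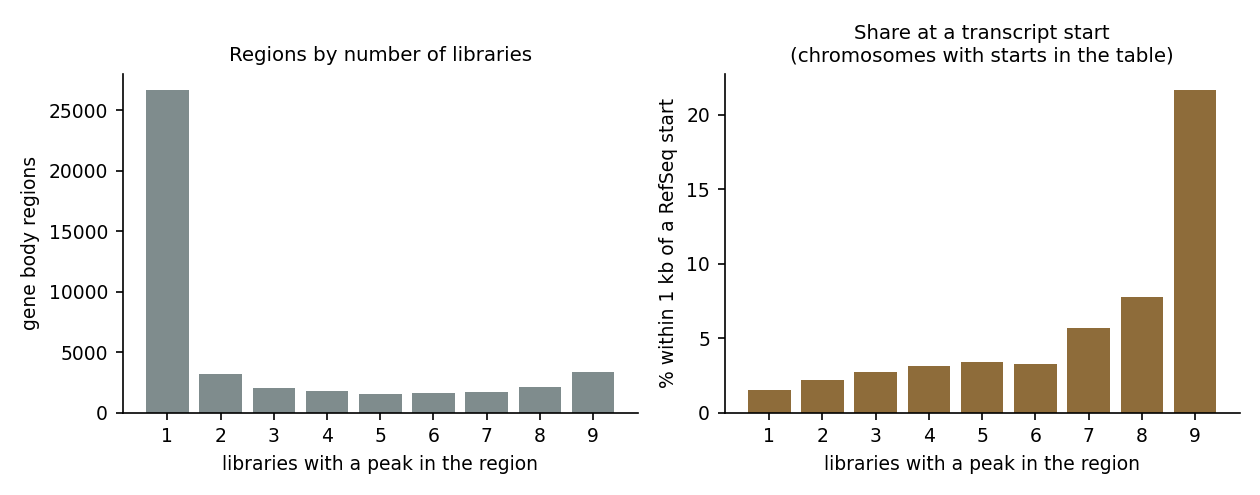
Left, gene body regions (y axis) by the number of libraries with a peak in them (x axis); right, the percentage of regions outside chromosome 18 that lie within 1 kb of a RefSeq transcript start. The bars run from 26718 regions in 1 library to 3413 in all 9, and the share at a start from 1.51% to 21.7%.

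Counted under 1 host gene each, the regions were spread over 8497 genes, and 2249 genes hosted a region present in all 9 libraries. The hosts were long: their median length was 52.1 kb, against 33.3 kb for all coding genes over 10 kb. The genes with the most regions were Lrp1b (161, of which 2 in all 9 libraries), Ptprd (118 and 3), Tenm3 (99 and 14), Cntnap2 (95 and 1) and Galntl6 (87 and 5), genes of 1140 to 2271 kb that encode, in order, a lipoprotein receptor, a receptor phosphatase, a teneurin, a neurexin relative and a glycosyltransferase. Tenm3 thus held more regions shared by all libraries than these others. Among regions whose host's strand could be read, those in all 9 libraries at a start lay at a median of 0.409 of the gene's length from its 5′ end, and 9.33% lay in the last 25% of it. Those in all 9 libraries elsewhere lay at a median of 0.500, and 21.6% in the last 25%. At the distance limit, regions 4 to 5 kb from a coding end were in all 9 libraries in 11.2% of cases and those 5 to 6 kb away in 12.5%.

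Most of the broadest regions lay at internal starts or noncoding transcripts, many in developmental or imprinted genes. Gnas, the imprinted gene of the stimulatory G protein subunit, held 2 of the 12 broadest. Its region at chr2:174294213-174301223, at the end of the antisense transcript Gnasas1, was covered over 5040, 6906 and 5589 bp in WT, 4784, 5788 and 6484 bp in KO and 5538, 5715 and 3869 bp in HxD. Its second region, chr2:174326269-174331691, on the internal starts shown above, was covered over 4701, 2600 and 4576 bp in WT, 5018, 5280 and 4911 bp in KO and 5176, 4698 and 5155 bp in HxD. At the second region WT replicate 2 was the lowest library, every KO library lay above every WT library and HxD overlapped WT. Neither mutant passed the test (limma adjusted p = 0.210 and 0.241).

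No other region of these passed the test either. Ptprn2, a phosphatase family gene of secretory vesicles, carried a region at the lncRNA Gm10421 (chr12:117150339-117156651) covered over 5271 to 5812 bp in 8 libraries and 2739 bp in KO replicate 1. Runx2, a regulator of bone formation, had its region at chr17:44733263-44738994, 38.1 kb from the nearest coding end, covered over 4622, 4321 and 5209 bp in WT, 3957, 5327 and 4837 bp in KO and 5045, 4462 and 3639 bp in HxD. No RefSeq start lies within 1 kb of it in the table used. Tenm4, Cic, Sox6, Smarcd3, Lingo1 and Nr5a2 were also among the broadest, and in none of the 12 did KO or HxD pass the limma test against WT.

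Some imprinted and epigenetic host genes carried internal regions in all genotypes. A region in all 9 libraries was held by 7 of 14 listed imprinted hosts and 15 of 50 listed chromatin and DNA methylation genes. At Kcnq1ot1, the noncoding RNA that silences its neighbours on the paternal chromosome, the region chr7:143294457-143297304 was covered over 2579, 2316 and 2622 bp in WT, 1257, 1724 and 2720 bp in KO and 2225, 2251 and 2041 bp in HxD. HxD lay below WT in every library and KO overlapped it, with limma adjusted p = 0.546 and 0.264. The start of Airn, the antisense transcript inside Igf2r, had only 3 CpG in its RefSeq window, yet its region (chr17:12740995-12743576) was present in all 9 libraries, and its covered length overlapped between genotypes: WT 2131 ± 282 bp, KO 2054 ± 315 bp, HxD 1584 ± 600 bp (SD, n = 3 each). The internal region of Zdbf2, an imprinted zinc finger gene, spanned the starts of Zdbf2 and of the antisense transcript Gm11608 (chr1:63272226-63274832) and was covered over 1444 to 2499 bp in the 9 libraries.

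Genes of the DNA methylation system, chosen here after their values were seen, showed the same. Dnmt3a, a de novo DNA methyltransferase, carried a region at its internal start (chr12:3890795-3893522), which is known to give the short isoform used in germ cells. It was covered over 1384, 968 and 2107 bp in WT, 2490, 2102 and 2029 bp in KO and 2297, 1853 and 1787 bp in HxD. WT replicate 3 lay among the mutant values and the other WT libraries below them, and neither mutant passed the test (limma adjusted p = 0.159 and 0.330). At an internal start of Dnmt1, the maintenance methyltransferase (chr9:20950958-20953925), fold enrichment was 5.72, 12 and 9.58 in WT, 21.6, 22.8 and 17.6 in KO and 18.6, 15.5 and 11.5 in HxD. Every KO library lay above every WT library there, while HxD overlapped WT, and the covered lengths of the genotypes overlapped. An internal start of Tet3, another TET dioxygenase, had a region of 831 to 1671 bp in all 9 libraries (chr6:83440878-83442752).

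HxD libraries had fewer gene body regions, while their share of each list hardly moved. The numbers present were 14862, 12470 and 24088 in WT, 15117, 14915 and 14047 in KO and 11554, 7919 and 9303 in HxD. Every HxD library lay below every other library, and KO overlapped WT. HxD had 0.560 times the WT number (two-sided exact permutation p = 0.1, the smallest possible for 3 against 3, adjusted p = 0.25 over 15 such tests) and KO 0.857 times (exact p = 0.9). As a share of a library's own autosomal regions they were 17.9%, 17% and 21.0% in WT, 23.3%, 20.5% and 21.7% in KO and 18.6%, 17.8% and 16.9% in HxD. KO lay above HxD in this share in every library (exact p = 0.1) and overlapped WT (exact p = 0.2). The whole lists differed as well: HxD had 0.596 and KO 0.746 times the WT number of autosomal regions. With each list reduced to the 48468 strongest autosomal peaks, the number in the shortest list, KO had 1.14 times and HxD 1.03 times the WT number of gene body regions, so the direction of the count turned.

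Covered length fell with the numbers. Gene body regions were covered over 12.5, 11 and 17.6 Mb in WT, 8.10, 11.3 and 10.6 Mb in KO and 9.91, 5.93 and 7.11 Mb in HxD. Every HxD library lay below every WT library, and KO overlapped both. An exact permutation F test over the 3 genotypes gave p = 0.0321 (0.0804 adjusted over 5 quantities), and p rose to 0.318 with lists of equal length. The mean covered length per region present was 842, 881 and 732 bp in WT, 536, 755 and 751 bp in KO and 858, 748 and 765 bp in HxD (exact permutation F test p = 0.271). KO replicate 1 had the shortest peaks, with a median of 436 bp against 652 to 798 bp in the others, and 51.2% of its gene body regions were in no other library. That share was 37.1% in WT replicate 3, 27.4% in KO replicate 3 and 3.62% in WT replicate 2.

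The fold enrichment of gene body peaks relative to promoter peaks was lowest in KO. The median fold enrichment of gene body regions over that of promoter regions in the same list was 0.752, 0.771 and 0.549 in WT, 0.487, 0.477 and 0.359 in KO and 0.560, 0.567 and 0.671 in HxD. Every KO library lay below every WT and every HxD library (exact p = 0.1 for each), and HxD overlapped WT (exact p = 0.4). Both terms of the ratio moved, each with overlap between genotypes. The promoter median was 13.4 ± 2.46 in KO against 9.70 ± 1.18 in WT, 1.39 times as high, and the gene body median was 5.85 ± 0.870 against 6.6 ± 0.466, 0.886 times as high (SD, n = 3 each). The exact permutation F test gave p = 0.0464 (0.0804 adjusted) and ranged from 0.0107 to 0.111 when each library was left out in turn.

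The split by transcript starts, made after the values were seen and so given without a test, separated WT from both mutants. Covered length away from starts was 10.6, 9.11 and 15.2 Mb in WT, 6.65, 9.21 and 8.42 Mb in KO and 7.93, 4.44 and 5.59 Mb in HxD. At starts it was 1.55, 1.51 and 1.88 Mb in WT, 1.2, 1.66 and 1.76 Mb in KO and 1.63, 1.28 and 1.28 Mb in HxD, and the genotypes overlapped. The ratio of the length at starts to that elsewhere was 0.147, 0.166 and 0.124 in WT, 0.175, 0.181 and 0.209 in KO and 0.206, 0.287 and 0.229 in HxD. All 6 mutant libraries lay above all 3 WT libraries. The mean ratio was 1.29 times WT in KO and 1.66 times WT in HxD, and both stayed above 1 under every alternative run, lists of equal length included.

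**Figure D3:**
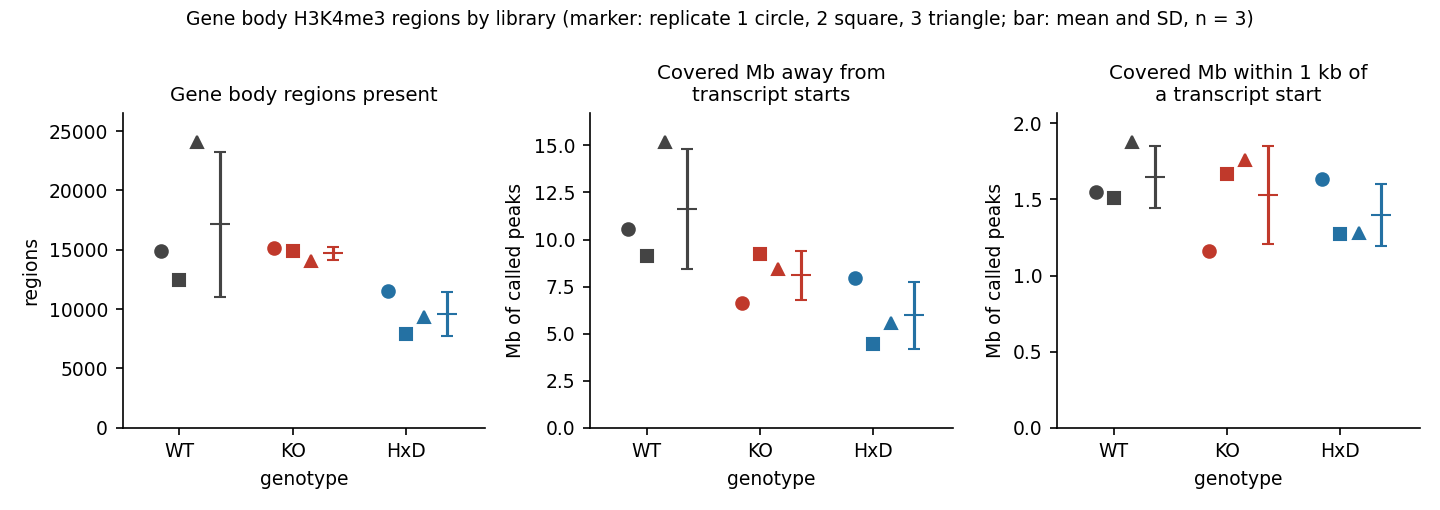
Gene body regions present (left), Mb covered by their peaks away from transcript starts (middle) and within 1 kb of a start (right), by genotype; points are libraries and bars the mean with SD (n = 3). Away from starts all HxD libraries lie below all WT libraries, with 4.44 to 7.93 against 9.11 to 15.2 Mb, while at starts the genotypes overlap.

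Fold enrichment showed the same split, and it followed CpG content. In the 3305 regions present in all 9 libraries outside chromosome 18, the median at starts over the median elsewhere was 1.01, 1.04 and 1.05 in WT, 1.29, 1.39 and 1.73 in KO and 1.31, 1.43 and 1.22 in HxD. Start regions thus had about the same fold enrichment as the rest in WT and a higher one in each mutant library. Among the 299 start regions whose richest window had 20 or more CpG, the median was 9.90, 9.85 and 12.7 in WT, 12.1, 18 and 20.5 in KO and 15.0, 13.8 and 11.5 in HxD. Among the 198 with at most 9 CpG, it was 10.2, 9.20 and 12.8 in WT, 7.41, 11.2 and 10.1 in KO and 9.42, 8.54 and 8.98 in HxD, close to the 2588 regions away from starts. CpG-rich over CpG-poor start regions gave 0.974, 1.07 and 0.992 in WT, 1.64, 1.61 and 2.04 in KO and 1.59, 1.62 and 1.28 in HxD. The ratio averaged 1.01 ± 0.0514 in WT, 1.76 ± 0.241 in KO and, in HxD, 1.5 ± 0.186 (SD, n = 3 each), with no mutant library as low as the highest WT library.

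The CpG ratio was not particular to gene bodies. The same ratio at promoter regions present in all 9 libraries, 5702 with 20 or more and 1082 with at most 9 CpG, came to 0.951 ± 0.0163 in WT, 1.52 ± 0.227 in KO and, in HxD, 1.31 ± 0.131 (SD, n = 3 each). In covered length, the median CpG-rich start region inside genes had 1861, 1871 and 2176 bp in WT, 1740, 2122 and 2392 bp in KO and 2142, 1919 and 1773 bp in HxD. The median region away from starts had 1272, 1213 and 1411 bp in WT, 793, 1188 and 1137 bp in KO and 1176, 837 and 928 bp in HxD. Away from starts every mutant library thus lay below every WT library, while CpG-rich start regions overlapped between genotypes. Fold enrichment depends on the background of each list, which a ratio within a list removes only in part.

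**Figure D4:**
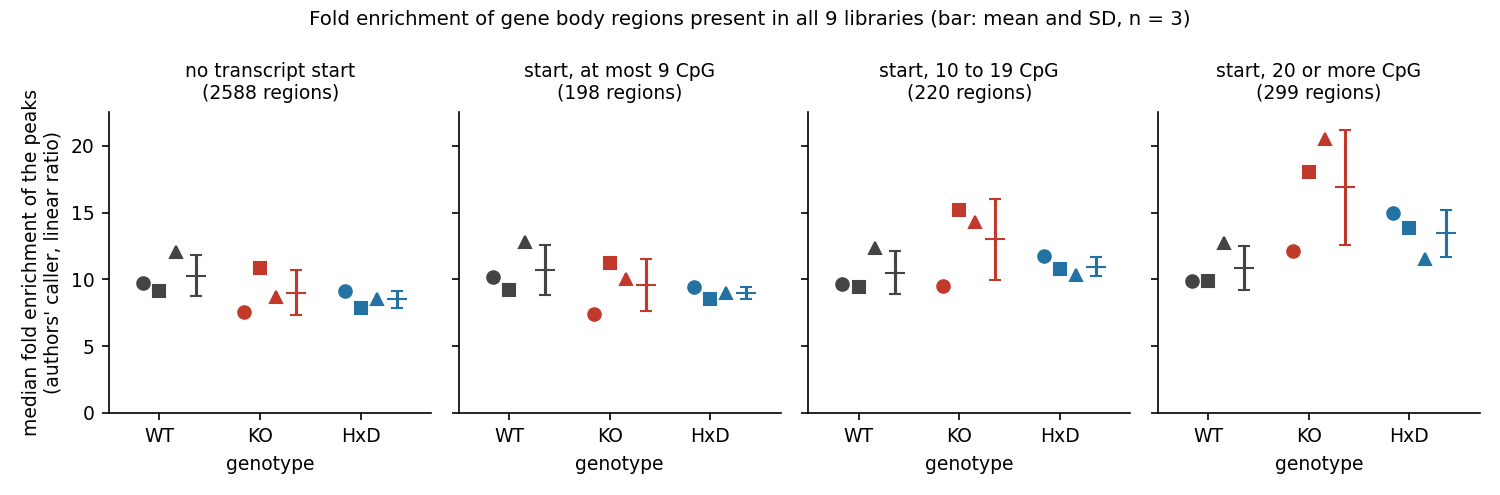
Median fold enrichment of the authors' peaks (y axis, linear ratio) in gene body regions present in all 9 libraries, by genotype, for regions away from starts and at starts with at most 9, 10 to 19, and 20 or more CpG per 300-base window; points are libraries, bars the mean with SD (n = 3). At 20 or more CpG the KO libraries reach 12.1 to 20.5 against 9.85 to 12.7 in WT, and at 9 or fewer the genotypes overlap.

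The 8 regions with the largest mean fold enrichment were regions of Nol4l, Sash1, Amotl1, Robo1, Rara, Septin9, Tank and Osbpl1a. At the Nol4l region (chr2:153442376-153446581, 34 CpG), fold enrichment was 8.21, 7.95 and 20.8 in WT, 32.2, 38.4 and 36.1 in KO and 24.1, 35.0 and 17.6 in HxD. KO lay above WT in every library and HxD overlapped WT through replicate 3. At the Sash1 region (chr10:8884502-8887447, 20 CpG), in a gene for a signalling adaptor, it was 8.01, 10.6 and 16.7 in WT, 27.1, 24.4 and 57.9 in KO and 27.3, 28.3 and 13.5 in HxD. At the Amotl1 region (chr9:14613115-14616125), in a gene for a cell junction protein, it was 16.5, 13 and 4.27 in WT, 38.4, 29.6 and 45.7 in KO and 23.8, 10.9 and 21.9 in HxD. These single values are the authors' own and were not tested.

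Region by region, covered bp was compared with limma over the 78668 autosomal regions with a peak in at least 3 libraries, 14386 of them gene body regions. Many were shorter in the mutants than in WT. In KO, 1292 gene body regions (8.98%) were shorter and 62 (0.431%) longer at adjusted p under 0.05, against 11.9% and 0.426% of all regions tested. In HxD, 1040 (7.23%) were shorter and 12 (0.0834%) longer, against 9.47% and 0.0661% of all regions. The gene body shares thus lay near or below the background. HxD against KO gave 0 calls in either direction by limma, with 367 shorter and 145 longer at an unadjusted p under 0.05. The median difference was -273 bp in KO and -313 bp in HxD, against -300 and -331 bp over all regions tested. A region that passed the filter through its WT libraries alone had to differ, so these counts rank regions and do not measure the extent of a loss.

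The calls changed with the scaling and with the number of libraries, while the median differences without 1 library kept their direction. With each library centred on its mean, 65 of the 14386 gene body regions were shorter and 182 longer in KO, and 6 and 14 in HxD. Longer calls thus became the majority among gene body regions, with medians of 8.69 and 11.4 bp. Over all 78668 regions tested, centring gave 773 shorter and 1050 longer in KO, so longer calls led there too. In HxD it gave 127 shorter and 80 longer over all regions. The medians over all regions were -17.8 bp in KO and -6.63 bp in HxD. Without KO replicate 1 or KO replicate 3 no region passed in KO by limma, with 2202 and 2654 shorter and 490 and 169 longer at an unadjusted p under 0.05 and medians of -179 and -295 bp. No gene body region passed in HxD without HxD replicate 1, 2 or 3, with 3658, 2143 and 2679 shorter and 35, 86 and 105 longer at an unadjusted p under 0.05 and medians of -377, -254 and -297 bp. Lists of equal length gave 67 shorter and 13 longer of 9918 gene body regions in KO. In HxD they gave 0 of either, with 993 shorter and 207 longer at an unadjusted p under 0.05. Over all 56857 regions tested with such lists, 593 were shorter and 294 longer in KO, and 0 and 1 in HxD.

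Start regions were called shorter less often than the rest. Of 1187 tested at a transcript start, 32 (2.7%) were shorter and 13 (1.1%) longer in KO, against 1229 (9.65%) and 46 (0.361%) of 12736 away from starts. In HxD, 22 (1.85%) and 4 (0.337%) of the start regions were called, against 995 (7.81%) and 7 (0.0550%) away from starts. The median difference at starts was -127 bp in KO and -206 bp in HxD, and away from starts -284 and -322 bp. The classes differed in how many libraries held their regions: 717 of the 1187 start regions and 2588 of the 12736 others were in all 9. Among these the gap was smaller: 7 (0.976%) at starts and 57 (2.20%) elsewhere were shorter in KO. In HxD the counts were 6 (0.837%) and 33 (1.28%). These shares have no test of their own difference. With each library centred on its mean, which moves all regions of a library alike and so leaves the gap between the classes as it was, the medians at starts were 155 bp in KO and 118 bp in HxD.

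The regions longer in both mutants were 8, in Mxi1, Larp1, Itprid2, Kansl1, Ank3, Bicral, Pde4a and Ctdp1. How many of all regions tested were longer in both was not counted, so they are given as single regions. For each mutant separately, longer gene body regions were 0.431% in KO and 0.0834% in HxD. These lay near the 0.426% and 0.0661% of all regions tested. Mxi1 encodes a MAX partner that opposes MYC. Its region (chr19:53328424-53331175), on internal starts of Mxi1 of which the richest has 49 CpG, was covered over 255, 773 and 905 bp in WT, 1786, 1847 and 2244 bp in KO and 1988, 2010 and 1959 bp in HxD. No mutant library came near the WT values. The difference from WT was 1315 bp in KO and 1341 bp in HxD (SE 274 each, limma adjusted p = 0.0166 and 0.0182). Fold enrichment there was 3.45, 7.23 and 9.16 in WT and 8.38, 18 and 30.3 in KO and 5.2, 14.3 and 7.88 in HxD, and both mutants overlapped WT in this measure.

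Larp1 encodes an RNA-binding protein that controls translation of ribosomal protein mRNAs. Its internal start region (chr11:58007800-58011605) was covered over 760, 0 and 2003 bp in WT, 2530, 3021 and 3806 bp in KO and 2728, 2532 and 2485 bp in HxD. All mutant libraries lay above WT replicate 3, and WT replicate 2 had no peak there (difference 2198 and 1661 bp, SE 451, limma adjusted p = 0.0163 and 0.0356). Itprid2, which encodes a partner of inositol trisphosphate receptors, had a region (chr2:79634493-79636824) of 797, 919 and 1200 bp in WT, 1707, 1980 and 2332 bp in KO and 2142, 1994 and 2062 bp in HxD, again without overlap. Kansl1, a subunit of the NSL histone acetyltransferase complex, had one (chr11:104440138-104443813) of 252, 1879 and 1837 bp in WT, 2751, 2853 and 3335 bp in KO and 2869, 2970 and 2514 bp in HxD. In Kansl1, WT replicate 1 stood far below the other WT libraries.

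The regions of Ank3, Bicral and Pde4a lie away from the starts in the table, and that of Ctdp1 is on chromosome 18, for which the table has none. Ank3, the gene of ankyrin-G, which anchors membrane proteins to spectrin, had a region (chr10:69923454-69927649), 99.8 kb from the nearest coding end, of 1866, 1787 and 1850 bp in WT, 3933, 3785 and 3843 bp in KO and 3451, 3655 and 2210 bp in HxD. KO was 2019 bp longer (SE 379, limma adjusted p = 0.0159), and HxD replicate 3 lay nearest WT (difference 1271 bp, adjusted p = 0.0489). With libraries centred, the HxD difference in Ank3 gave limma adjusted p = 0.0520. Bicral, a subunit of a BAF-type chromatin remodeller, had one (chr17:46855482-46859389) of 577, 1845 and 1678 bp in WT, 2980, 3269 and 3170 bp in KO and 3908, 2886 and 2512 bp in HxD. Pde4a, a cyclic AMP phosphodiesterase gene, had one (chr9:21204092-21205669) of 0, 271 and 657 bp in WT, 1062 to 1257 bp in KO and 1091 to 1304 bp in HxD.

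The regions with the smallest p among those shorter in a mutant lay away from the starts in the table, and most had no peak left. Plin2, the gene of a lipid droplet coat protein, had a region (chr4:86636826-86639099) of 2081, 1389 and 1512 bp in WT, 0 bp in every KO library and 416, 0 and 0 bp in HxD. The difference was -1661 bp in KO and -1522 bp in HxD (SE 254, limma adjusted p = 0.0159 and 0.0180). Wdr49 had one (chr3:75391158-75392757) of 1414, 1457 and 1414 bp in WT, 0 bp in every KO library and 457, 0 and 472 bp in HxD. Ptprd had one (chr4:77737705-77739364), 472 kb from the nearest coding end, of 1134, 1202 and 1660 bp in WT, 0 bp in every KO library and 0, 0 and 237 bp in HxD. Regions of Lrp1b, Adarb2 and Mgat4c were absent from all mutant libraries, with WT values from 932 to 1488 bp. They passed the filter through their WT libraries alone and so had to differ. Trio, the gene of a guanine nucleotide exchange factor, differed: its region (chr15:27747259-27749043) had 1590, 1745 and 1517 bp in WT, 1074, 1124 and 1188 bp in KO and 319, 274 and 0 bp in HxD libraries. Its HxD difference of -1420 bp passed the test (limma adjusted p = 0.0180) and its KO difference of -489 bp did not (0.190). All these regions were picked for a small p in the same data, so passing again under another scaling is no independent support. With each library centred on its mean, the KO differences of Plin2, Wdr49 and Ptprd passed the limma test. The HxD difference of Plin2 passed too (limma adjusted p = 0.0339). The HxD differences of Wdr49, Ptprd and Trio did not (limma adjusted p = 0.131, 0.0736 and 0.0536). For Lrp1b, Adarb2 and Mgat4c, which had to differ, the centred values are no support. Their KO differences passed and their HxD differences did not (limma adjusted p = 0.115, 0.113 and 0.0918).

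**Figure D5:**
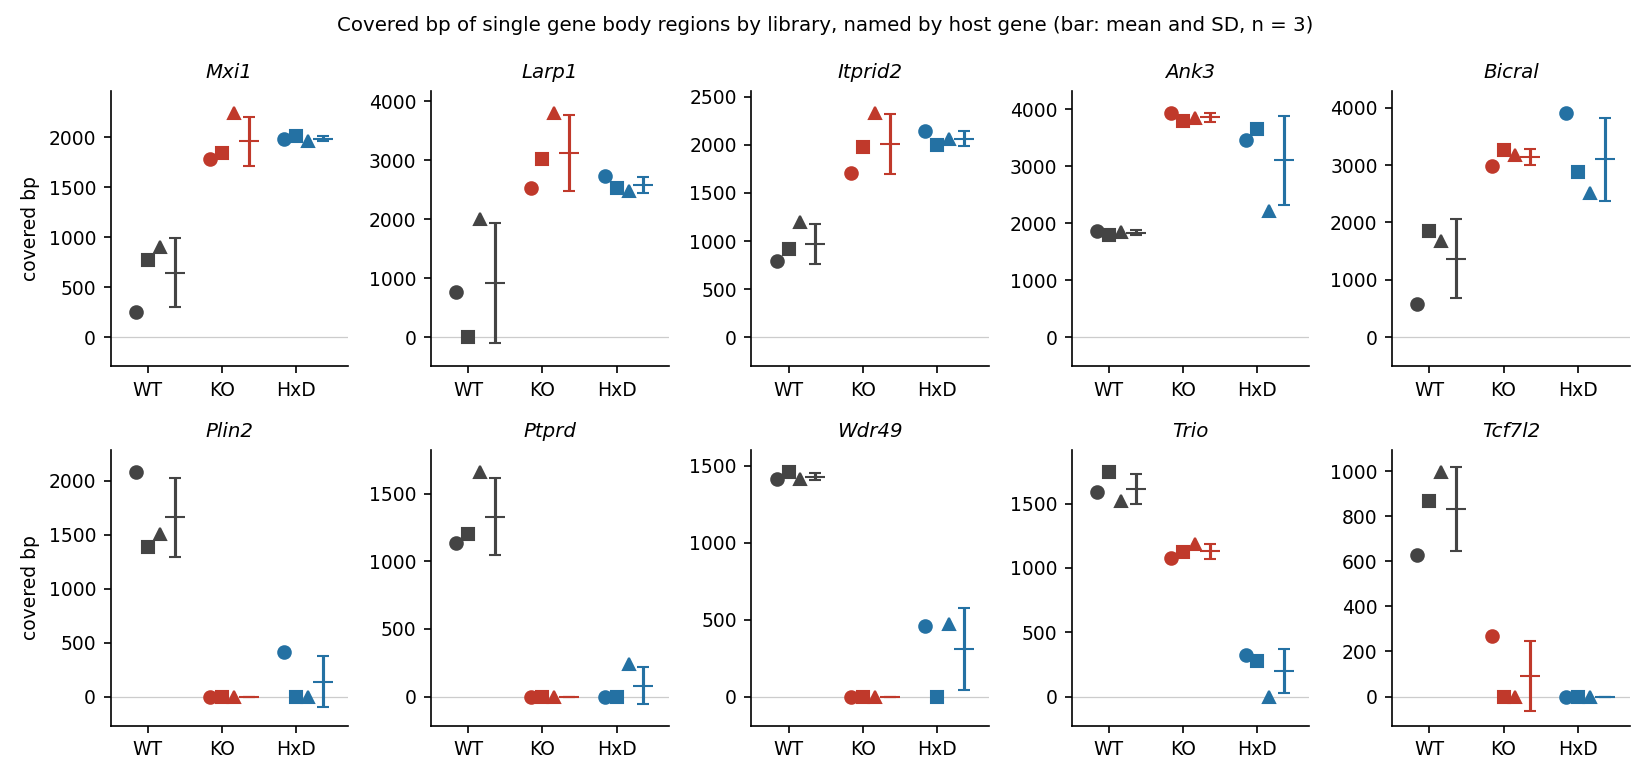
Covered bp (y axis) of 10 single gene body regions by genotype, each named by its host gene; points are libraries and bars the mean with SD (n = 3). In the upper row all mutant libraries lie above all WT libraries, and in the lower row all WT libraries lie above all mutant libraries, with most mutant values at 0.

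By presence alone, gene body regions were lost in the mutants about as often as regions in general. Of 9837 present throughout WT, 927 (9.42%) had no peak in KO, 941 (9.57%) none in HxD and 437 (4.44%) none in any mutant library. Among all autosomal regions present throughout WT, these shares were 10.8%, 10.4% and 5.33%, and taken over all 179043 merged regions they were 3.61%, 3.49% and 1.79%. Of 1003 such regions at a transcript start, 14 (1.40%) were in no KO library, against 889 of 8521 (10.4%) away from starts, and the counts for HxD were 14 and 901. The gap remained among weak regions. Where the lowest WT fold enrichment was under 5, 2.33% of start regions and 14.9% of others were absent from KO. From 5 to 7 the shares were 2.11% and 11.9%, and from 7 to 10 they were 0.314% and 4.38%. At 10 or more they were 0.704% and 0.808%.

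The Tcf7l2 start shown above had a region throughout WT and in 1 mutant library, KO replicate 1. Tcf7l2 encodes a transcription factor of Wnt signalling, and its region (chr19:55895073-55896170) had 627, 869 and 995 bp in WT, 268, 0 and 0 bp in KO and 0 bp in every HxD library. Of the regions that WT kept and KO lacked altogether, the longest lay in Plin2, Cntnap2, Wdr49 and A26c3, with WT means from 1410 to 1661 bp. Of those that HxD lacked altogether, the longest lay in Atxn1, Fstl5, Fut9 and Celsr3, and the Celsr3 region (chr9:108842304-108843722) kept 1117 bp in KO replicate 2. Fstl5, Mgat4c, CK137956 and Tmprss11f held the longest of those that both mutants lacked.

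Gains in presence were few. Peaks stood throughout KO and nowhere in WT at 78 gene body regions, 1.5% of the 5205 present throughout KO, against 0.594% of all such autosomal regions. For HxD there were 20 of 5226 (0.383% against 0.181%), and for both mutants together 7 of 3602 (0.194% against 0.0645%). Taken over all merged regions, the backgrounds were 0.11%, 0.0346% and 0.00949%. These shares were higher than the backgrounds, over few regions and with no test of the difference. With lists of equal length, the losses fell to 258 regions for KO, 177 for HxD and 78 for both, and the gains rose to 206, 137 and 39. Without KO replicate 1 the gains in KO were 329, and without HxD replicate 3 those in HxD were 119. The Zfp385b start region, in a zinc finger gene (chr2:77518212-77519685), had 0 bp in every WT library, 459, 1321 and 1058 bp in KO and 677, 768 and 408 bp in HxD. The Adgrd1 region, in an adhesion receptor gene (chr5:129155116-129156578), had 485, 1189 and 1325 bp in KO and 1059, 374 and 385 bp in HxD. G3bp2, a stress granule protein gene, and Gramd1b, a sterol transfer protein gene, followed with 477 to 1544 and 577 to 1417 bp in KO and 363 to 779 and 271 to 566 bp in HxD. Zfp385b, Adgrd1, G3bp2 and Gramd1b were picked for their absence from WT and passed the filter through mutant libraries alone, so they had to differ. Their limma values against WT thus add no support to the gain. The KO differences passed (limma adjusted p = 0.0292, 0.0329, 0.0409 and 0.0196) and the HxD differences did not.

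Some of the regions with the smallest limma p between KO and HxD are given here, none of them called. The regions of Bmp7 and Rnf212b passed the filter through 1 genotype alone and so had to differ. Bmp7, the gene of a bone morphogenetic protein, had a region (chr2:172913617-172914367) of 638, 582 and 630 bp in KO and 0 bp in the other 6 libraries. Rnf212b, a RING finger gene related to the meiotic crossover factor Rnf212, had one (chr14:54809721-54810374) of 542 ± 135 bp in HxD (SD, n = 3) and 0 bp in the other 6 libraries. The Zbbx region (chr3:75138685-75140494) was lacking in KO alone, with 1432, 1326 and 1132 bp in WT, 0 bp in every KO library and 1239, 622 and 961 bp in HxD. No difference of HxD from KO passed the test over all regions.

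Regions in lists of genes grouped by function are given beside all gene body regions tested, of which 8.98% were shorter in KO and 7.23% in HxD, and all autosomal regions tested, of which 11.9% and 9.47% were. Of 572 tested regions in 50 synapse and neuronal adhesion genes (median length 477 kb), 91 (15.9%) were shorter and 1 longer in KO and 67 (11.7%) and 1 in HxD, shares above both backgrounds. Their medians were -375 and -357 bp against -273 and -313 bp over all gene body regions. Of 351 in developmental transcription factor genes, 21 (5.98%) were shorter in KO and as many in HxD, with medians of -282 and -322 bp. Of 213 in genes known for an internal promoter, 16 (7.51%) were shorter in KO and 13 (6.10%) in HxD, with none longer, and 26 of these 40 genes held a region in all 9 libraries. Of 68 in chromatin and DNA methylation genes, 2 (2.94%) were shorter and 2 longer in KO and 1 (1.47%) and 0 in HxD. Of 28 in imprinted hosts of noncoding transcripts, 1 (3.57%) was shorter in KO and 0 in HxD. The shares of these last 4 lists lay below the gene body background, and no test compared any list with it.

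Of 45 listed germ cell genes on the autosomes, 25 (55.6%) held a gene body region and 8 (17.8%) one in all 9 libraries. Among all coding genes these shares were 41.4% and 10.9%, but the comparison was not matched for gene length. Only 13322 of the 20665 coding genes are longer than 10 kb, and shorter ones cannot hold such a region. The germ cell genes had a median length of 39.9 kb, above that of all coding genes. The shares thus do not show an excess in germ cell genes. Of the 26 tested regions in germ cell genes, 0 were shorter and 1 longer in KO, and 0 changed in HxD, by limma, with medians of 20.5 and -182 bp. Prdm1, which specifies primordial germ cells, had a region at an internal start (chr10:44456312-44460179) of 2931, 3581 and 2904 bp in WT, 2801, 3228 and 3484 bp in KO and 3254, 3092 and 2894 bp in HxD, and the genotypes overlapped. Elavl2, an RNA-binding protein gene, had 2 start regions, and the one at chr4:91373845-91377309 had 782, 1049 and 2141 bp in WT, 1601, 2743 and 3127 bp in KO and 2920, 1228 and 2145 bp in HxD, and neither difference passed the test (limma adjusted p = 0.129 and 0.306). Among chromatin genes, the regions of Kdm6b (3406 to 4447 bp), a histone demethylase, of Kdm2b (2363 to 3005 bp at its start) and of Hdac7 (1359 to 2994 bp), a deacetylase, were present in every library.

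The lists held 48468 to 123424 autosomal peaks a library, the fewest in HxD replicate 2 and the most in WT replicate 3. Read depth is not known from these files, so a region without a peak is one that was not called. Of 8 germ cell markers, 5 had a peak within 1 kb of a gene end in all 9 libraries and 0 in none. Peaks in all 9 libraries also stood at 4 of 6 Sertoli, 3 of 6 Leydig or interstitial and 4 of 8 endothelial or blood markers, while Star, Cyp17a1, Tie1 and Ptprc had none in any library. H3K4me3 also marks silent CpG-rich promoters, so these counts do not show which cells were present, and the part of other cells in the results was not tested.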

How the data were processed

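H3K4me3 peak lists of 9 libraries were used, and 9 IgG samples were not analysed here. The authors deposited 1 list of called peaks a library. The submitters' processing notes name the build mm10 and the tools MACS2 2.1.0, Bowtie2 2.5.0, bedtools 2.27.1, SAMtools 1.16.1 and Trim Galore, without their settings, and no source states which control the peak caller used. These deposited lists give for each peak a fold enrichment, a linear ratio over the caller's background, and a −log10 q value, both made by the authors' caller. Read depth is unknown, so precision rests on the 3 libraries of each genotype.

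Peaks were merged where they overlapped, and 1 bp of overlap counted as presence in a library. Covered bp is the length of a region under a library's peaks. Library values were set against each other in exact permutation tests, two-sided, whose smallest p for 3 against 3 is 0.1, and by exact permutation F tests over the 3 genotypes, with Benjamini-Hochberg adjustment. Covered bp per region was fitted with limma 3.58.1 in R 4.3.3 (3 genotypes, trended prior variance, Benjamini-Hochberg adjustment over all 78668 regions, threshold 0.05) for regions with a peak in at least 3 libraries. The limma step was run on simulated data in which only selected gene body regions were narrowed in KO. Those data had no difference between whole lists, so the run does not cover the difference seen here. Regions were joined to the RefSeq gene and promoter tables of GRCm38.p6 with Python 3.11.15, numpy 2.4.6 and pandas 2.3.3. A region on chromosome 18 entered no split by starts.

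Named regions were the broadest (12) and the strongest (8) in all 9 libraries, the 5 with the smallest limma p in each direction, the 4 longest of each presence pattern, the broadest at noncoding gene ends, the broadest of each gene list and the 5 hosts with the most regions. Some regions that this rule names are not reported here. Regions, lists and tests were chosen with earlier results of these data known. The splits by transcript start and CpG content, the motifs and the regions longer in both mutants were added after seeing the data, and the internal starts of Dnmt3a, Dnmt1, Tet3, Tcf7l2 and Igf2r were picked after their values were seen.

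Alternatives were a −log10 q of at least 5, lists of equal length, distances of 2 and 10 kb, 25% overlap, merging over 500 bp, no filter, centred libraries, a log2 scale with 100 bp added, a replicate block, and each library left out. Libraries with the same replicate number did not deviate together (correlations of their deviations from -0.196 to 0.0866), so the numbers were not used as pairs.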

Additional observations from a re-analysis of the deposited data

Results flagged for a closer look

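Chromosome X was outside the autosomal selection and holds such regions too. By the same rule, 1174 merged regions lay inside coding genes of chromosome X and more than 5 kb from every coding gene end, and 23 of them had a peak in all 9 libraries. The libraries held 370, 256 and 653 of them in WT, 281, 228 and 241 in KO, and in HxD 144, 93 and 130. All HxD libraries lay below all others, as on the autosomes, and no test was run.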

How the results depend on the processing

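The ratios of start regions to other regions, and of CpG-rich to CpG-poor start regions, stayed above WT in both mutants under each alternative run. For KO the covered-length ratio moved to 1.53 with a −log10 q of at least 5. Lists of equal length turned the number of regions to 1.14 (KO over WT) and 1.03 (HxD over WT), the share to 1.06 (HxD over WT) and the mean length per region to 0.988 (HxD over KO). They gave exact permutation F test p = 0.0179 for the number, 0.0250 for the share and 0.318 for covered length, and the presence counts fell or rose to 258, 177, 78, 206, 137 and 39, with 67 shorter and 13 longer regions in KO and 0 of either in HxD. Over all regions tested with such lists, 593 were shorter and 294 longer in KO, and 0 and 1 in HxD. With lists of equal length, mean length per region was 0.772 times WT in KO and 0.762 times in HxD (exact permutation p = 0.1 each). In the main run these were 0.832 and 0.966 (exact permutation p = 0.3 and 0.8). Requiring 25% overlap gave exact F test p = 0.0393 for the number. A −log10 q of at least 5 gave exact F test p = 0.0857 for covered length, 37 longer regions in KO, and 49 and 4 regions gained in KO and in both mutants. Shorter and longer regions by limma were 763 and 34 in KO and 599 and 6 in HxD with no filter. They were 65 and 182 in KO and 6 and 14 in HxD with centred libraries, against 773 and 1050 in KO and 127 and 80 in HxD over all regions tested. On the log2 scale 787 were shorter in KO and 669 in HxD. With the replicate number as a block (replicate block) they were 741 and 21 in KO and 414 and 4 in HxD, a change that says nothing of the size of the differences. The fit without filter adjusts over more regions, and the cause of the other changes was not tested.

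Leaving out each library in turn, the number of regions ranged from 0.754 to 1.08 times WT in KO, turned by WT replicate 3, and its exact F test p from 0.0107 to 0.293. The share ranged from 0.914 to 1.02 (HxD over WT, turned by WT replicate 3), with exact F test p from 0.0321 to 0.121. The mean length per region ranged from 0.918 to 1.00 (HxD over WT, 1.0042 without WT replicate 2). Exact F test p ranged from 0.0179 to 0.118 for covered length and from 0.0107 to 0.111 for fold enrichment against promoters. By limma, shorter regions ranged from 0 to 1315 and longer ones from 0 to 53 in KO, and from 0 to 1235 and from 0 to 11 in HxD. Regions lost ranged from 927 to 2003 in KO, from 941 to 1901 in HxD and from 466 to 966 in both, and regions gained from 78 to 329, from 20 to 119 and from 7 to 24. The highest losses came without KO replicate 2 for KO and without WT replicate 2 for HxD and for both. With fewer libraries a pattern is easier to meet, so these counts rise by construction. Depth limits all absences: a region without a peak may lie under the caller's threshold.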
